A study of Mus musculus with 8 samples.

Results

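The semaphorins, their plexin receptors and the neuropilin co-receptors were followed through single-cell transcriptomes of small cell lung cancer allografts. The members were all genes whose symbol starts with Sema and a digit or with Plxn, together with Nrp1 and Nrp2. They numbered 31 of the 22056 genes in the tables: 20 semaphorins, 9 plexins and 2 neuropilins. All 31 are annotated as protein-coding genes in GENCODE M21. N2N1G is a mouse small cell lung cancer cell line, a neuroendocrine lung tumour line, and every allograft had been started from 1000000 of its cells and taken out after 3 weeks. There were 2 brain and 3 subcutaneous allografts, both kinds made by direct injection, and 3 liver allografts seeded through the tail vein. Route and site can therefore not be told apart in comparisons with liver. The strain, sex and age of the host mice are not given in the sources used here, and all tumours derive from this single line. The libraries were 10x 3' libraries of sorted living cells, and tumour cells carry a green fluorescent reporter, listed as eGFP.

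Semaphorins are guidance proteins that steer axons, migrating neurons, blood vessels and immune cells. Class 3 semaphorins are secreted and mostly reach plexins through neuropilins, while classes 4 to 7 are mainly held on the membrane and bind plexins directly. Activated plexins regulate small GTPases inside the cell, which alters adhesion and the cytoskeleton. Neuropilins also bind vascular endothelial growth factors, and in the brain the family is known for repulsion and attraction of growth cones and for wiring of circuits.

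Most class 3 members lie in 2 stretches of the genome (GRCm38), including the 5 that were lower in brain than in liver. Sema3d (chromosome 5, 12383385 to 12588948), Sema3a (chromosome 5, 13125414 to 13602565), Sema3e (chromosome 5, 14025276 to 14256689) and Sema3c (chromosome 5, 17574281 to 17730268) share a stretch of chromosome 5. Sema3b (chromosome 9, 107597674 to 107609229) and Sema3f (chromosome 9, 107681500 to 107710475) are neighbours on chromosome 9. To show the start-site sequence of members that moved in opposite directions, the 250 bases before the RefSeq start (GRCm38.p6, gene strand, 5' to 3') are given for Sema3d, Sema3a and Sema6d, which were lower in brain than in subcutaneous tumours, and for Nrp1 and Sema6b, which were higher in brain than in liver. These windows overlap no GENCODE exon. Capitals mark a CACGTG match, the E-box that Myc proteins are known to bind, which begins 23 bases before the Sema6d start. This is 1 of 2 RefSeq windows of Sema6d, shown for the match, and the other window holds none. Sema6b also has 2 windows.
Sema3d, chr5:12382916-12383165, plus strand: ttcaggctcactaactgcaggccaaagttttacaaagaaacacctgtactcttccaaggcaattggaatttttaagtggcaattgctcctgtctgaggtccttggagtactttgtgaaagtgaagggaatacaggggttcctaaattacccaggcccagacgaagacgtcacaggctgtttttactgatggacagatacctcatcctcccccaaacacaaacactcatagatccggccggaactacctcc
Sema3a, chr5:13396534-13396783, plus strand: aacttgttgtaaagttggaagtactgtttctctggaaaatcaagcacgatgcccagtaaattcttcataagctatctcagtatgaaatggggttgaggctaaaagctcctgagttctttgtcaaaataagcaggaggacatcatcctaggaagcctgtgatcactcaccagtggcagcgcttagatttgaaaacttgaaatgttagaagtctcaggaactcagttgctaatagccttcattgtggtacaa
Sema6d, chr2:124089719-124089968, plus strand: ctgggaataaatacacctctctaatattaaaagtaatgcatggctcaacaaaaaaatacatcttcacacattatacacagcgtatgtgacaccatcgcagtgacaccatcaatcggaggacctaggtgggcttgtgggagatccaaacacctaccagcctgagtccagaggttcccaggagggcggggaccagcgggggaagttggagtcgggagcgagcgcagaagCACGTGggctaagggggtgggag
Nrp1, chr8:128358823-128359072, plus strand: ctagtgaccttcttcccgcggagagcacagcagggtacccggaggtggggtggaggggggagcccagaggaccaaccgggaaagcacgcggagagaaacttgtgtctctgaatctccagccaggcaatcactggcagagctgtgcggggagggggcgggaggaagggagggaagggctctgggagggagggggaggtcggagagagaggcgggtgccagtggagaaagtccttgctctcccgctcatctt
Sema6b, chr17:56140344-56140593, minus strand: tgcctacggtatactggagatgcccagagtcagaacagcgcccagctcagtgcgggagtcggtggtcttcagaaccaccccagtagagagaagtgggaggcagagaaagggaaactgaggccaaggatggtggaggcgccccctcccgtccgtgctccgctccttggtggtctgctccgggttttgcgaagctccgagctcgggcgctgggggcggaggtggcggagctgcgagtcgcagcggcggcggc
The Sema3d, Sema3a and Sema6d windows held 46.8%, 40.8% and 52.4% G and C with 4, 2 and 9 CpG pairs. The Nrp1 and Sema6b windows held 64.4% and 66.0% with 11 and 20 CpG pairs. The windows of Sema6d and Sema6b that are not shown held 45.2% and 59.2% with 6 and 5. The windows of Nrp1 and Sema3a lie within the longer GENCODE gene models. These windows are a choice among the members and do not show a split by direction. The windows of Sema3c and Sema5a, both lower in brain than in liver, overlap exons and held 78.4% and 72.0% with 39 and 17 CpG pairs.

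RefSeq windows were found for 26 members, with 37 windows in all. CACGTG occurred in 5.41% of the members' windows and in 6.02% of all 32851 windows of the same length. TAATTA, a homeodomain motif of the type engrailed proteins bind, occurred in 0 of the 37 windows and in 4.84% of all. Each motif reads the same on both strands, their letters do not allow a match of one to overlap a match of another, and a match or its absence is a description of these letters only.

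Before the results, the state of the libraries is given. The tables held 38460 cells, of which 36797 passed the filters and 34719 were tumour cells by a share of at least 0.2% eGFP and Mycl UMIs. In their sums all 11 tumour and neuroendocrine markers read, Insm1, Chga and Syp among them, had UMIs in every library. Their summed level was 8976 to 13134 CPM. The 11 include eGFP and Mycl, which defined the tumour cells, so that part of the level was set by the threshold. Without eGFP and Mycl the sum was 2381 to 3411 CPM. UMIs are unique molecular identifiers, each standing for 1 captured transcript. The tumour cells gave 21689091 to 62047017 UMIs per library, and the members held 87466 of them, or 0.0243%. Levels are in CPM, the UMIs of a gene per 1000000 UMIs of the tumour cells of a library. A count of 0 allows a level of up to 0.0484 to 0.138 CPM, depending on the library, by counting error alone. Library pairs shared 20 to 56 cell barcodes. A total of 513 cells lay between 0.15% and 0.25% around the threshold for tumour cells. The subcutaneous 1 library stood apart from the other subcutaneous libraries and lay between them and the brain libraries for many members. Host myeloid RNA was higher in the brain tumour-cell sums: the 12 macrophage markers summed to 595.8 and 158.4 CPM in brain, 26.4 to 29.3 in liver and 25.6 to 75.6 in subcutaneous libraries. Of these 12 markers, 9 were higher in both brain libraries than in all others, while Ms4a7, Mrc1 and Fcgr1 were at 0 UMIs in at least 1 library. All 10 microglia markers were higher in both brain libraries, and 5 of them were at 0 in at least 1 library.

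In tumour cells the most abundant members were 3 ligands and 1 receptor. Sema3c, a secreted semaphorin, averaged 34.5 CPM over the 8 libraries. Plxnb2, a receptor for class 4 semaphorins, averaged 31.1 CPM, Sema4c, a membrane ligand of Plxnb2, 28.2 CPM, and Sema6a, a membrane ligand of A-type plexins, 23.2 CPM. At the other end, 10 members averaged under 1 CPM, and Plxna4, at 0 to 7 UMIs per library, was too low to be tested. Because a 3' library counts about 1 tag per transcript whatever its length, these levels were not divided by length.

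Plxnb2, Sema4c and Sema6a differed little in level between sites. Plxnb2 stood at 29.8 and 26.8 CPM in brain, 37.9, 31.9 and 30.1 in liver, and 29.2, 30.9 and 32.4 in subcutaneous tumour cells. Sema4c stood at 26.7 and 24.4 CPM in brain, 26.6, 26.1 and 27.8 in liver, and 30.6, 31.2 and 31.9 in subcutaneous libraries. Sema6a stood at 27.2 and 22.8 CPM in brain, 25.1, 19.4 and 20.1 in liver, and 21.8, 23.2 and 26.2 in subcutaneous libraries. None of the 3 passed the edgeR threshold in any contrast, although Plxnb2 did not overlap between brain and liver, nor Sema4c between brain or liver and subcutaneous libraries. Between brain and liver, the log2 fold changes were -0.35 (SE 0.13) for Plxnb2, -0.18 (SE 0.09) for Sema4c and 0.10 (SE 0.15) for Sema6a, and between brain and subcutaneous tumours -0.13 (SE 0.13), -0.29 (SE 0.09) and 0.07 (SE 0.15). Sema4c was called against subcutaneous tumours by DESeq2 (-0.28, adjusted p = 0.0288) and by edgeR without subcutaneous 1 (-0.31, adjusted p = 0.0343). Plxnb2 was called against liver under 2 other settings, given with the plexins below.

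Against liver, tumour cells in brain had less of most class 3 semaphorins and more Nrp1, Sema5b, Sema6b, Sema3g, Sema4a and Sema7a. Of 30 tested members, 12 passed a Benjamini-Hochberg adjusted p under 0.05 in the edgeR quasi-likelihood test, 6 higher and 6 lower in brain. In this contrast 21.8% of all 13931 tested genes passed, with 13.2% higher and 8.56% lower. The median log2 fold change was -0.10 over the tested members and 0.00 over all genes. The 12 became 4 without brain 1, 5 without brain 2 and 6 without liver 2, fits in which fewer of all genes passed as well (7.84%, 8.85% and 11.1%). In every one of the 12, the brain and liver libraries did not overlap. Uncalled members such as Plxna2, Sema4b and Sema4g did not overlap either, so this does not set the 12 apart. Of up to 21 alternative settings, the call was lost in 14 for Sema4a and Sema7a, 8 for Sema3f, 6 for Sema3a, 4 for Sema3g and Sema6b, 2 for Sema3b, 1 each for Sema3c, Sema3d, Sema5a and Sema5b, and 0 for Nrp1.

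Brain and subcutaneous tumour cells differed in 8 of 30 members, 4 higher and 4 lower in brain, where 15.1% of all genes passed (8.94% higher and 6.13% lower). The members' median log2 fold change was -0.05. Sema3g, Sema4a, Sema5b and Sema6b were again higher, and Sema3a, Sema3c, Sema3d and Sema6d lower. These comparisons share the brain libraries with those against liver. The count was 11 without subcutaneous 1, where 34.3% of all genes passed. It was 5, 4 and 5 without liver 1, 2 or 3, beside 12.2%, 9.85% and 12.7% of all genes. It was 2 and 1 without subcutaneous 2 or 3, beside 5.05% and 4.75%. The fits without brain 1 or 2 hold 1 brain library each, and fewer members and fewer of all genes passed in them too. The call was lost in 14 settings for Sema3g, 12 for Sema3d, 9 for Sema6b, 7 each for Sema3a, Sema3c and Sema5b, 5 for Sema6d and 2 for Sema4a. Liver and subcutaneous tumour cells differed in 1 member, Nrp1, where 2.83% of all genes passed (0.933% higher and 1.9% lower in liver), and the members' median was -0.02.

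**Figure D1:**
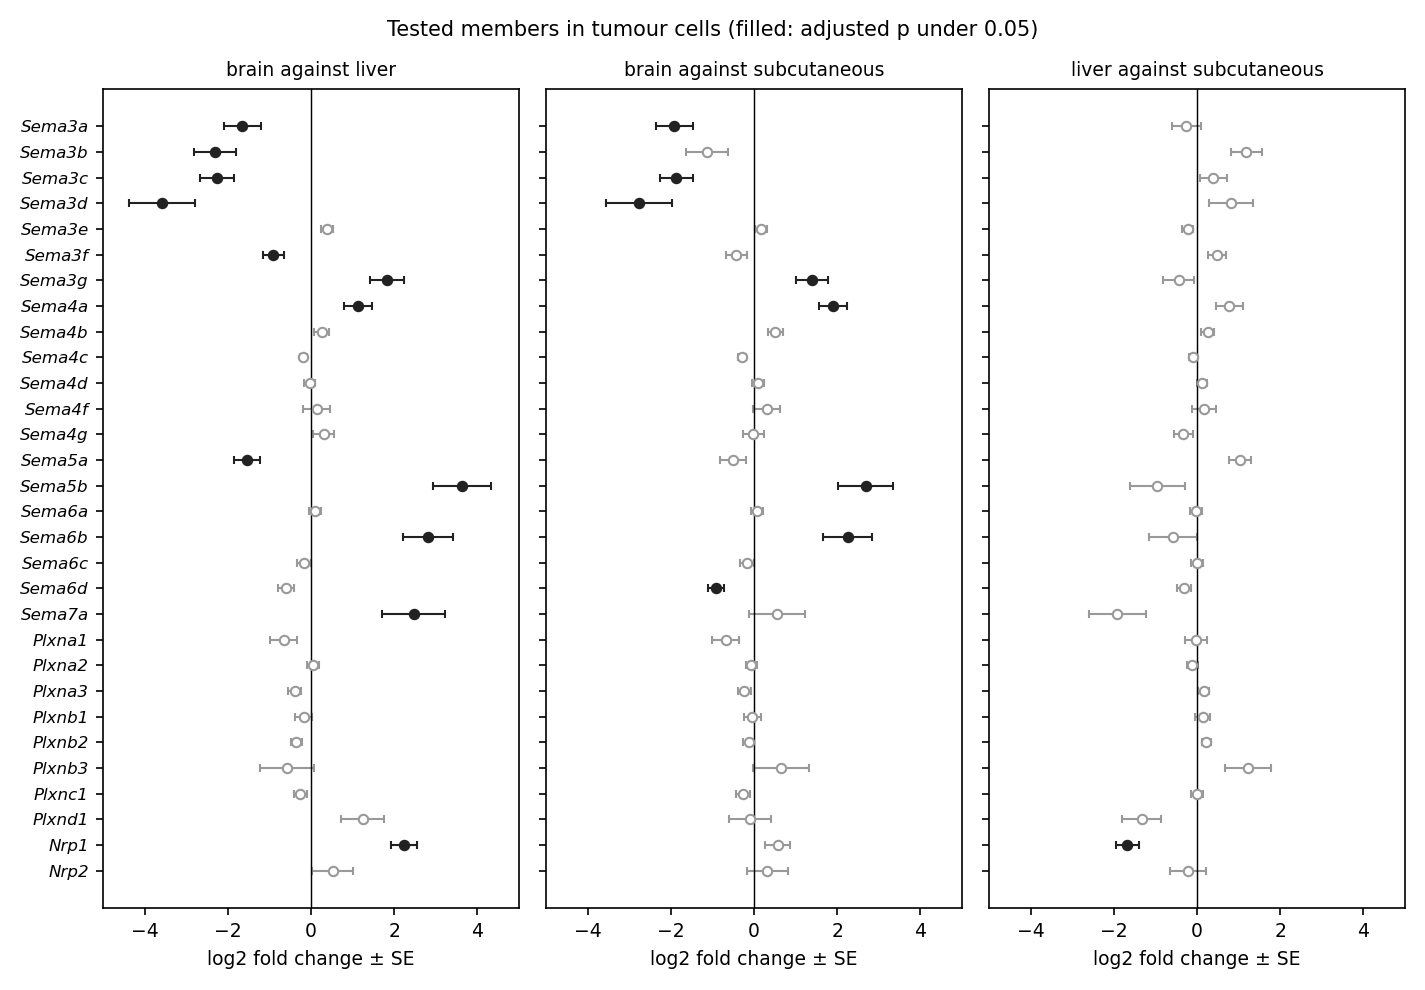
Log2 fold changes with standard errors of the 30 tested members in tumour cells for brain against liver (left), brain against subcutaneous (middle) and liver against subcutaneous (right). Filled points passed an adjusted p under 0.05: 12 against liver and 8 against subcutaneous for brain, and Nrp1 alone for liver against subcutaneous, while all plexins are open.

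Class 3 semaphorins, the secreted ligands of neuropilin and plexin complexes, held most of the decreases. Of 7 class 3 members, 5 were lower and 1, Sema3g, was higher in brain than in liver (85.7% called, beside 21.8% of all genes). Against subcutaneous tumours 3 were lower and 1 higher (57.1% called, beside 15.1%). Their median log2 fold change was -1.66 against liver and -1.13 against subcutaneous libraries. Between liver and subcutaneous libraries 0 of 7 passed by edgeR and by DESeq2, beside 2.83% and 7.58% of all genes. For 7 genes this is near those shares. In edgeR 1 had an unadjusted p under 0.05, a threshold at which no share of all genes was taken.

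Sema3c stood at 9.87 and 11.1 CPM in the brain libraries, 52.0, 45.2 and 42.5 CPM in liver, and 18.4, 48.1 and 48.5 CPM in subcutaneous libraries. The brain values lay below all others, and subcutaneous 1 lay between brain and the rest. The log2 fold changes were -2.27 (SE 0.40 with an edgeR adjusted p = 0.00751) against liver and -1.87 (SE 0.40 and adjusted p = 0.0203) against subcutaneous. At least 1 Sema3c UMI was found in 7.69% and 8.82% of brain tumour cells, 29.6% to 40.4% in liver, and 14.4%, 32.3% and 35.2% in subcutaneous libraries.

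Sema3d, a secreted guidance cue of heart and nerve development, had 0 and 7 UMIs in the brain libraries, which is 0 and 0.181 CPM. It stood at 1.21, 1.40 and 1.06 CPM in liver and at 0.336, 0.967 and 0.944 CPM in subcutaneous libraries. Brain lay below all others, with log2 fold changes of -3.58 (SE 0.79 with an edgeR adjusted p = 0.0137) and -2.77 (SE 0.79 and adjusted p = 0.0460). Against subcutaneous tumours the edgeR adjusted p was 0.0862 without cells with host gene UMIs and 0.101 without the En1-led clusters described below. It was 0.0764, 0.0787 and 0.0740 without liver 1, 2 or 3. Leaving out cells with host gene UMIs also lowers depth, since brain 1 then keeps 668 of its 2418 tumour cells.

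Sema3a, the classical collapsing factor of growth cones, stood at 0.461 and 0.491 CPM in brain, 1.48, 1.57 and 1.14 CPM in liver, and 0.935, 2.01 and 2.47 CPM in subcutaneous libraries. Both brain libraries lay below the others. The log2 fold changes were -1.66 (SE 0.45 with an edgeR adjusted p = 0.0287) against liver and -1.92 (SE 0.45 and adjusted p = 0.0236) against subcutaneous. The gene next to it on chromosome 5, Sema3e, which signals through Plxnd1 without a neuropilin, was not among the called members: it stood at 13.1 and 12.9 CPM in brain, 8.63 to 10.2 CPM in liver and 10.8 to 13.2 CPM in subcutaneous libraries, with a log2 fold change of 0.39 (SE 0.14 with an edgeR adjusted p = 0.083) against liver.

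The chromosome 9 neighbours Sema3b and Sema3f, both first described as candidate tumour suppressors in lung cancer, were lower in brain than in liver and did not pass against subcutaneous tumours. Sema3b stood at 0.184 and 0.103 CPM in brain (4 UMIs each), 0.628, 0.460 and 0.842 CPM in liver, and 0.336, 0.290 and 0.289 CPM in subcutaneous libraries. Its log2 fold change against liver was -2.31 (SE 0.50 with an edgeR adjusted p = 0.0130), and against subcutaneous -1.13 (SE 0.51 and adjusted p = 0.166) with no overlap. Sema3f stood at 2.17 and 1.73 CPM in brain, 3.83, 3.58 and 2.61 CPM in liver, and 2.23, 2.56 and 3.02 CPM in subcutaneous libraries. Its log2 fold changes were -0.90 (SE 0.26 with an edgeR adjusted p = 0.0353) against liver and -0.43 (SE 0.25 and adjusted p = 0.285) against subcutaneous.

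Sema3g, a class 3 semaphorin known from endothelium, moved the other way at a low level. It had 21 and 28 UMIs in brain (0.968 and 0.723 CPM), 10 to 11 in each liver library (0.209 to 0.223 CPM), and 13 to 20 in the subcutaneous libraries (at most 0.384 CPM). Brain lay above all others, with log2 fold changes of 1.83 (SE 0.40 with an edgeR adjusted p = 0.0130) and 1.39 (SE 0.39 and adjusted p = 0.0428). Both calls were lost without tumour cells holding host gene UMIs (1.57 and 1.02, edgeR adjusted p = 0.0581 and 0.196) and without the En1-led clusters described below (0.90 and 0.50, adjusted p = 0.258 and 0.543). DESeq2 did not call Sema3g against subcutaneous tumours (adjusted p = 0.0750). Endothelial RNA moved with it to a smaller extent, since the 11 endothelial markers summed to 51.0 and 27.6 CPM in brain, 10.5 to 12.2 in liver and 15.01 to 36.1 in subcutaneous tumour-cell sums. Of these markers 2 were higher in both brain libraries than in all others, Cdh5, Cldn5, Flt1 and Emcn were at 0 in at least 1 library, and their part in the Sema3g result was not tested.

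**Figure D2:**
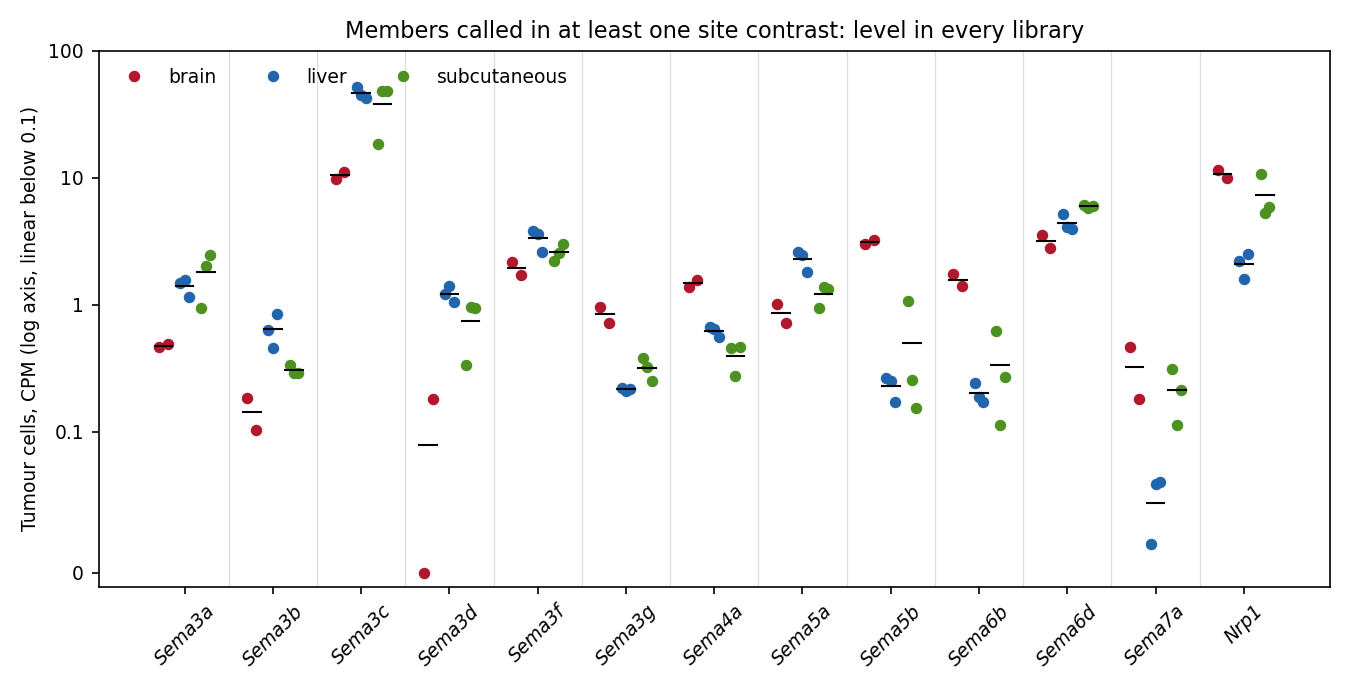
Levels of the 13 members that passed in at least 1 site contrast, in CPM on a log axis that is linear below 0.1, with 1 point per library and a bar at the group mean. The brain points of Sema3a, Sema3c and Sema3d lie below all others and those of Sema5b, Sema6b, Sema3g and Sema4a above all others, while subcutaneous 1 is the subcutaneous library nearest to brain for Sema3c, Sema5b, Sema6b and Nrp1.

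Nrp1, the co-receptor of class 3 semaphorins and of VEGF, was low in liver. It stood at 11.6 and 10.0 CPM in brain, 2.21, 1.61 and 2.50 CPM in liver, and 10.7, 5.29 and 5.86 CPM in subcutaneous libraries. All liver libraries lay below all others, while subcutaneous 1 overlapped with brain. The log2 fold changes were 2.24 (SE 0.31 with an edgeR adjusted p = 0.00217) for brain against liver and -1.67 (SE 0.28 and adjusted p = 0.0229) for liver against subcutaneous. The latter lost the threshold without liver 1 (-1.72, adjusted p = 0.0924) and without liver 2 (-1.50, adjusted p = 0.130), and in non-cycling cells. Brain against subcutaneous gave 0.57 (SE 0.30 with an edgeR adjusted p = 0.227), and 0.95 (adjusted p = 0.00394) without subcutaneous 1. Without tumour cells holding any UMI of C1qa, C1qb, C1qc, Tyrobp, Fcer1g, Ctss or Hbb-bs, genes of phagocytes and red cells, Nrp1 was 2.43 higher on the log2 scale in brain than in liver (edgeR adjusted p = 0.00149).

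Nrp2, the second neuropilin, was less abundant and did not pass in any contrast. It stood at 1.29 and 0.646 CPM in brain, 0.466, 0.920 and 0.432 CPM in liver, and 0.504, 0.951 and 0.809 CPM in subcutaneous libraries, which overlap throughout. Its log2 fold change between brain and liver was 0.53 (SE 0.49 with an edgeR adjusted p = 0.480).

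Among the membrane-bound semaphorins, Sema5b and Sema6b had the largest called increases in brain against both other sites. Sema5b, a thrombospondin-repeat semaphorin that repels neurites, stood at 3.00 and 3.26 CPM in brain, 0.263, 0.251 and 0.173 CPM in liver, and 1.08, 0.258 and 0.154 CPM in subcutaneous libraries. Brain lay above all others and subcutaneous 1 stood alone between. The log2 fold changes were 3.64 (SE 0.69 with an edgeR adjusted p = 0.00765) against liver and 2.68 (SE 0.65 and adjusted p = 0.0275) against subcutaneous. Its relative Sema5a, which shares the thrombospondin repeats, went the other way against liver. Sema5a stood at 1.01 and 0.723 CPM in brain, 2.61, 2.47 and 1.81 in liver, and 0.935, 1.39 and 1.33 in subcutaneous libraries. The log2 fold change was -1.54 (SE 0.32 with an edgeR adjusted p = 0.0111) against liver and -0.51 (SE 0.32 and adjusted p = 0.310) against subcutaneous.

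Sema6b, a transmembrane ligand of A-type plexins, stood at 1.75 and 1.40 CPM in brain, 0.243, 0.188 and 0.173 in liver, and 0.623, 0.113 and 0.270 in subcutaneous libraries. Both brain libraries lay above all others, with log2 fold changes of 2.83 (SE 0.60 with an edgeR adjusted p = 0.0118) and 2.25 (SE 0.58 and adjusted p = 0.0331). Sema6d, another class 6 ligand of A-type plexins, was lower in brain than in subcutaneous tumours. It stood at 3.55 and 2.79 CPM in brain, 5.16, 4.12 and 3.97 in liver, and 6.07, 5.77 and 5.99 in subcutaneous libraries, and these 3 ranges did not overlap. Its log2 fold changes were -0.92 (SE 0.19 with an edgeR adjusted p = 0.0168) against subcutaneous and -0.60 (SE 0.19 and adjusted p = 0.0501) against liver. Without cells holding host gene UMIs they were -0.67 (edgeR adjusted p = 0.109) and -0.29 (adjusted p = 0.465).

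Sema7a, a lipid-anchored semaphorin that binds Plxnc1 and integrins, rested on few UMIs: 10 and 7 in brain (0.461 and 0.181 CPM), 1, 3 and 3 in liver (0.0202 to 0.0648 CPM), and 13, 7 and 11 in subcutaneous libraries (0.113 to 0.312 CPM). Brain and subcutaneous libraries overlapped, and both lay above liver. The log2 fold change between brain and liver was 2.47 (SE 0.76 with an edgeR adjusted p = 0.0465), which DESeq2 did not call. Sema4a, a class 4 semaphorin known from immune cells and retina, stood at 1.38 and 1.58 CPM in brain, 0.668, 0.648 and 0.561 in liver, and 0.456, 0.274 and 0.462 in subcutaneous libraries. The 3 ranges did not overlap, and the log2 fold changes were 1.13 (SE 0.34 with an edgeR adjusted p = 0.0430) against liver and 1.90 (SE 0.34 and adjusted p = 0.0100) against subcutaneous.

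Sema4a was also a gene of the host cells described below, and the host marker values given above moved with brain. Without tumour cells holding host gene UMIs its log2 fold changes were 1.03 (edgeR adjusted p = 0.119) against liver and 1.94 (adjusted p = 0.0167) against subcutaneous. Without the En1-led clusters described below they were 0.32 (edgeR adjusted p = 0.691) and 1.36 (adjusted p = 0.0981). The call against liver was also lost in DESeq2 (adjusted p = 0.0522) and without liver 1, 2 or 3 (edgeR adjusted p = 0.0952, 0.112 and 0.101). The other class 4 members, among them Sema4d, a ligand of Plxnb1 known to shape immune and vascular cells, did not pass the edgeR test. DESeq2 called Sema4c, as given above, and Sema4b (0.52, adjusted p = 0.0463) against subcutaneous tumours. Sema4d stood between 9.78 and 12.1 CPM in all libraries.

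No plexin, the signalling receptors of the family, passed in any site contrast by edgeR or DESeq2. In the edgeR test 21.8%, 15.1% and 2.83% of all genes passed in brain against liver, brain against subcutaneous and liver against subcutaneous. Of 8 tested plexins, 3, 0 and 1 had an unadjusted p under 0.05 in these contrasts in the edgeR test. The share of all genes at that unadjusted threshold was not taken, so these counts are not a result about plexins. Their log2 fold changes between brain and liver ran from -0.66 for Plxna1 to 1.24 for Plxnd1, with a median of -0.30. Under other settings of the brain against liver contrast, Plxna3, Plxnb2 and Plxnd1 were called in non-cycling cells, Plxna3 and Plxnb2 without liver 3, Plxnd1 without subcutaneous 1 and Plxna3 at the stricter tumour threshold. Plxnd1, the receptor of Sema3e, varied most among the plexins above 0.5 CPM, at 1.57 and 0.698 CPM in brain, 0.397 to 0.475 in liver and 0.694 to 1.94 in subcutaneous libraries. Plxna2 and Plxnb1 kept to 14.1 to 20.3 and 9.58 to 13.5 CPM in all libraries.

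The members also differed between groups of tumour cells. Tumour cells were clustered with the member genes left out of the genes that defined the clusters, which gave 20 clusters, and levels across them are a description without a test. A cluster of 138 cells led by Cd74, C1qa and other host genes was set aside. Clusters 5 and 6 had the homeobox gene En1 among their 10 leading genes. They held 28.2% and 38.5% of tumour cells in brain, 0.924%, 0.525% and 0.233% in liver, and 9.49%, 0.797% and 0.856% in subcutaneous libraries.

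Within a library, En1-led cells had more Sema5b, Sema6b, Nrp1 and Sema4a and less Sema3c and Sema6d than the other tumour cells. For Sema5b the levels in En1-led and other cells were 8.93 and 0.584 CPM in brain 1, 7.98 and 0.453 in brain 2, 9.42 and 0.289 in subcutaneous 1, and 5.87 and 0.211 in subcutaneous 2. For Nrp1 they were 20.3 and 8.04, 14.1 and 7.62, 28.8 and 9.004, and 25.4 and 5.12 CPM in the same order. For Sema3c they were 2.07 and 13.0, 2.84 and 15.9, 4.43 and 19.7, and 23.5 and 48.3 CPM. These 4 libraries, the ones with at least 50 En1-led cells, had the same order for all 3 genes. For Sema6b it held in brain 1 (4.31 and 0.713 CPM), brain 2 (3.12 and 0.371) and subcutaneous 1 (3.05 and 0.394), while subcutaneous 2 had 0 and 0.114 CPM. The En1-led sum of subcutaneous 2, from 50 cells, held 13 UMIs of Nrp1, 12 of Sema3c, 3 of Sema5b, and 1 each of Sema4a and Sema6d.

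**Figure D3:**
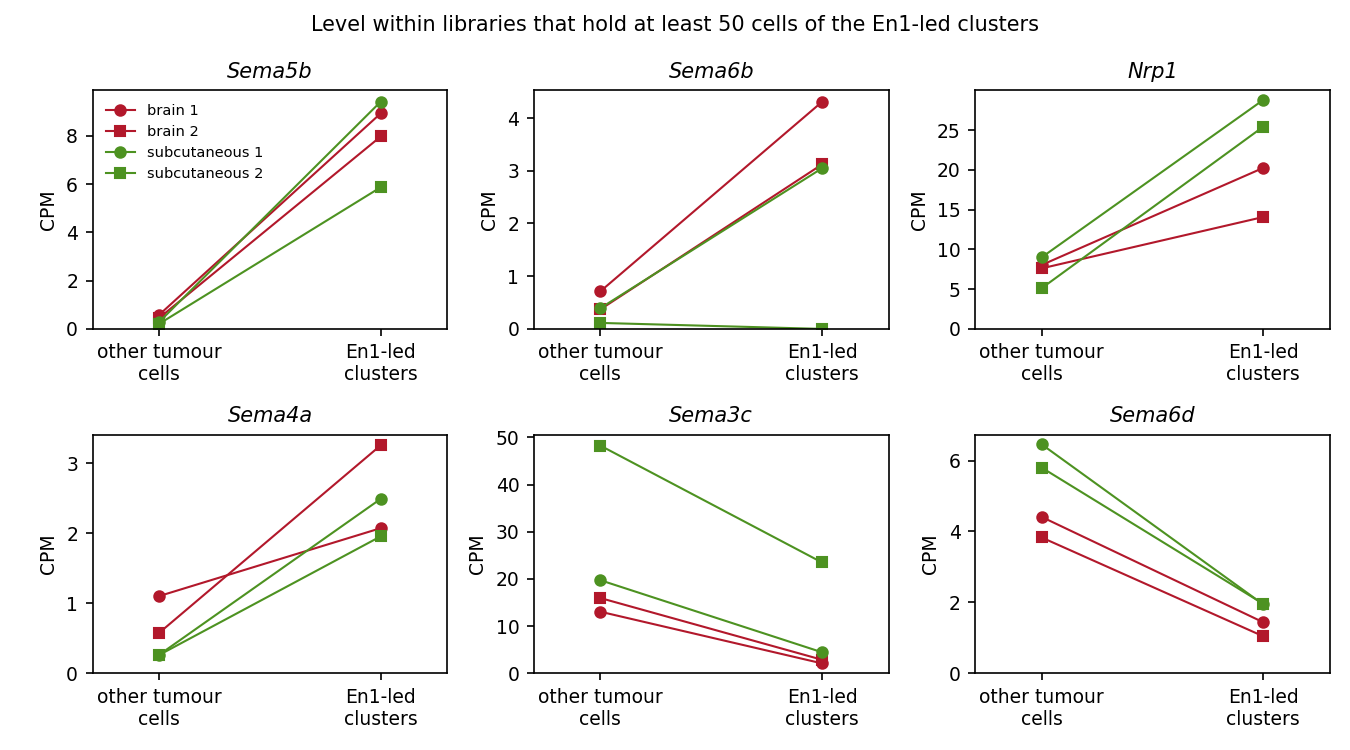
Levels in CPM (linear axes from 0) of 6 members in the En1-led tumour clusters and in the other tumour cells, with 1 line per library that holds at least 50 En1-led cells. Sema5b, Nrp1 and Sema4a rise and Sema3c and Sema6d fall along every line, and Sema6b rises in 3 of 4 libraries. The subcutaneous 2 line rests on 1 to 3 UMIs in En1-led cells for Sema4a, Sema6d and Sema5b.

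When the En1-led clusters were left out, a setting chosen after the data were seen, 6 members remained called between brain and liver (1 higher and 5 lower) and 0 between brain and subcutaneous. The background fell too, to 8.73% and 6.17% of all genes. Nrp1 kept a log2 fold change of 1.87 (edgeR adjusted p = 0.00614) and Sema3c of -1.76 (adjusted p = 0.0247) against liver. Sema5b moved to 1.57 (edgeR adjusted p = 0.0969) and Sema6b to 1.34 (adjusted p = 0.197). Sema3g and Sema4a lost their calls as given above, and Sema3a (-1.37, edgeR adjusted p = 0.0810) and Sema7a (2.54, adjusted p = 0.0720) lost theirs too. In tumour cells outside these clusters, Sema3c stood at 13.0 and 15.9 CPM in brain and at 42.5 to 52.2 CPM in liver.

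Other tumour clusters also stood out. Cluster 12, led by Mfap2, Des and Fst and present in all libraries, had 35.0 CPM Nrp1, 8.94 CPM Sema5b and 6.22 CPM Sema6b, with 2.33 CPM Sema3c. Nrp1 ranged from 0.816 CPM in cluster 1, led by Kcnh3 and Sfrp5, to 48.6 CPM in cluster 16, and Sema3c reached 59.0 CPM in cluster 8, led by replication and mitosis genes. Cluster 16, of 115 cells, was led by Igfbp7, Sparc, Bpifb1, Bpifa1, Scgb3a2, Dcn, Hes1, Ly6c1, Mgp and Hes5. Some of these are genes that stromal cells express too and others are not, and the identity of the cluster was not tested. Cluster 16 also held the highest Nrp2 level, 7.05 CPM. Sema4c was highest in cluster 4, led by Txnip and Ddit4, at 59.4 CPM against a median of 27.0 CPM over clusters. Cluster 17, the shallowest with a median of 4566 UMIs per cell, had the lowest level of 12 members.

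**Figure D4:**
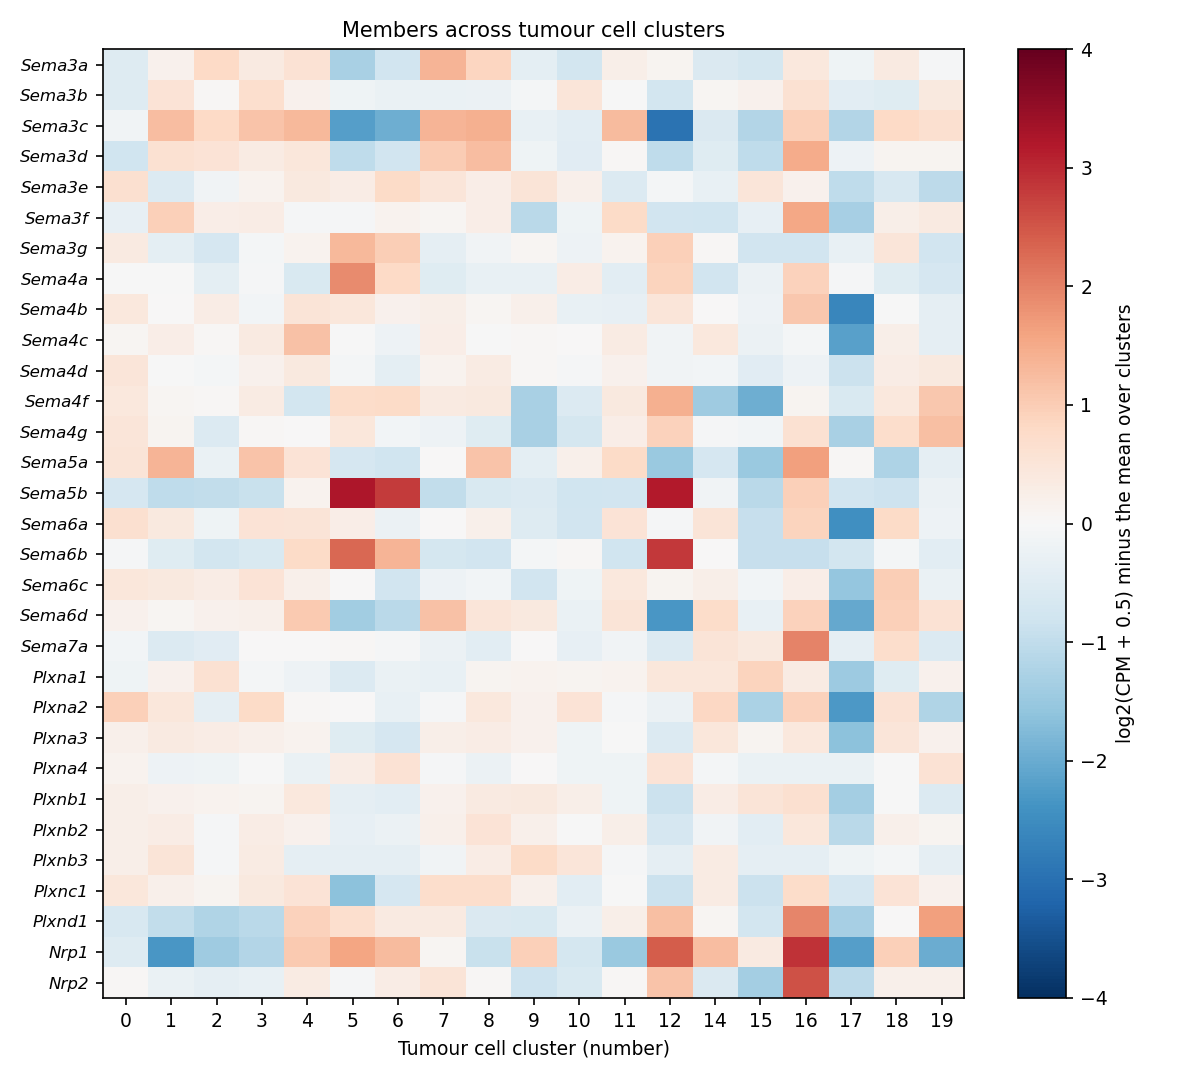
Level of each member in the tumour clusters as log2(CPM + 0.5) minus its mean over clusters, with red above and blue below the mean and the host-led cluster 13 left out. Sema5b and Sema6b are high in clusters 5, 6 and 12, where Sema3c and Sema6d are low, and Nrp1 is highest in cluster 16.

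In host phagocytes both neuropilins, Plxnb2, Plxnd1, Sema4a and Sema4d were higher than in tumour cells, and Plxna2, Plxna3, Plxnb1 and 6 semaphorins were lower. Cells under the tumour threshold numbered 2078, and 1552 of them lay in clusters led by host genes. Another 517 of the remaining 526 lay in 2 clusters without host markers and with a low eGFP and Mycl share, and they were not used as host cells. Macrophage-like and microglia-like cells (825 cells) were compared with tumour cells of the same libraries in the 4 libraries with at least 20 of them: brain 1 (607 cells), brain 2 (158), liver 2 (27) and subcutaneous 1 (23). As a limited measure of free tumour RNA, eGFP in these host cells was at 1.96%, 1.89%, 6.90% and 6.39% of its level in tumour cells, in that order. Host cells were set by a low eGFP and Mycl share, so that rule itself keeps this ratio low. Of 21 members tested, 15 passed the edgeR test with the library as a block, 6 higher and 9 lower in host cells, where 61.5% of all 12080 genes passed (17.4% higher and 44.1% lower).

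Both neuropilins were higher in these phagocytes. Nrp2 stood at 26.4, 16.5, 0 and 49.2 CPM in host cells of brain 1, brain 2, liver 2 and subcutaneous 1, against 1.29, 0.646, 0.920 and 0.504 CPM in tumour cells, with a log2 fold change of 4.72 (SE 0.49 with an edgeR adjusted p = 8.83e-21). Nrp1 stood at 48.7, 78.4, 0 and 131.3 CPM against 11.6, 10.0, 1.61 and 10.7 CPM, with 2.73 (SE 0.36 with an edgeR adjusted p = 1.97e-13). The host sums of liver 2 and subcutaneous 1 hold only 44566 and 60915 UMIs, so that 0 in liver 2 is the absence of any UMI in a shallow sum. Both neuropilins were thus higher in host cells in 3 of 4 libraries. Their small p-values rest largely on a spread shared over all tested genes and do not measure agreement between the 4 libraries.

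Sema4d stood at 92.9, 84.6, 0 and 16.4 CPM in host cells, a log2 fold change of 2.67 (SE 0.37 with an edgeR adjusted p = 3.03e-12), and rested mainly on the brain libraries. Plxnb2 stood at 71.8, 68.1, 22.4 and 131.3 CPM, with 1.36 (SE 0.34 with an edgeR adjusted p = 0.000173). It lost the threshold without brain 1 and without brain 2. Plxnd1 had a log2 fold change of 2.98 (SE 0.57 with an edgeR adjusted p = 9.56e-07) and Sema4a of 2.70 (SE 1.00 and adjusted p = 0.0279). Sema4a had 13, 0, 0 and 4 UMIs in the 4 host sums, and its call was lost in DESeq2, with other size factors, without the filter on low counts, with brain libraries only and without subcutaneous 1.

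The 9 members lower in phagocytes were Plxna2, Plxna3, Plxnb1, Sema3c, Sema3e, Sema3f, Sema4f, Sema6a and Sema6c. Plxna2, a receptor of class 3 and class 6 semaphorins, stood at 0.812 CPM in host cells of brain 1 and had 0 UMIs in the other 3 sums, against 14.4 to 20.3 CPM in tumour cells. Sema6a stood at 1.22, 2.06, 0 and 0 CPM against 19.4 to 27.2 CPM, with a log2 fold change of -4.17 (SE 0.65 with an edgeR adjusted p = 1.28e-09). Sema4f had 0 UMIs in all 825 cells, which allows up to 0.974 CPM, and 1.01 to 2.26 CPM in tumour cells of these libraries. In this list the calls of Sema3c and Sema4f were lost without brain 1, and that of Sema3f in 5 of the 8 alternatives that gave it an adjusted p. DESeq2 gave none to Sema3f or Sema4f.

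Microglia-like cells, all from brain, and macrophage-like cells differed in level without a test. Sema4d stood at 120.3 CPM (exact 95% Poisson interval 103.7 to 138.9) in microglia-like and 56.7 CPM (45.4 to 69.9) in macrophage-like cells, and Plxnb2 at 88.0 (73.8 to 104.1) and 56.7 (45.4 to 69.9). Plxna4, hardly detected in tumour cells, had 19 UMIs in microglia-like cells, 12.3 CPM (7.40 to 19.2). In 409 cells with high MHC class II genes, Sema4d stood at 73.1 CPM (63.6 to 83.6), Sema4a at 29.6 (23.7 to 36.6) and Plxnd1 at 29.3 (23.4 to 36.2). The intervals here and below cover counting error only.

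Several members stood higher in the rarer classes than in tumour cells, without a test. In 85 fibroblast-like cells, 70 of them from subcutaneous 1, Sema3c stood at 278 CPM (exact 95% Poisson interval 223 to 343), Sema3e at 70.4 (44.1 to 106.5), Sema3b at 51.2 (29.3 to 83.1) and Sema3d at 48.0 (26.9 to 79.1). All 87 Sema3c UMIs of this class came from the cells of subcutaneous 1. In 81 endothelial-like cells, 54 of them from brain 1, Nrp1 and Sema6a stood at 100.7 CPM each (68.9 to 142.2), Sema3c at 91.3 (61.1 to 131.1), Sema7a at 85.0 (56.0 to 123.7), Plxnd1 at 69.3 (43.4 to 104.9) and Sema3g at 37.8 (19.5 to 66.0). In 36 oligodendrocyte lineage-like cells, Sema4d stood at 195.7 CPM (135.5 to 273.5), Sema6a at 103.6 (61.4 to 163.8) and Plxnb3 at 40.3 (16.2 to 83.0).

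A further 38 dendritic cell-like cells, led by Ccr7, held Plxnc1, a receptor of Sema7a, at 177.7 CPM (exact 95% Poisson interval 125.1 to 244.9), Sema4a at 124.9 (81.6 to 183.0) and Nrp2 at 86.4 (51.2 to 136.6). Over all 34719 tumour cells, Plxnc1 stood at 8.03, Sema4a at 0.670 and Nrp2 at 0.729 CPM. In 19 neutrophil-like cells, with a median of 1234 UMIs, Sema4a stood at 260.1 CPM (104.6 to 535.8) from 7 UMIs. In 16 pericyte-like cells, Nrp1 stood at 154.9 CPM (90.2 to 248.0) and Sema6d at 109.4 (56.5 to 191.0). In these classes eGFP was at 0.894% (endothelial-like) to 6.30% (oligodendrocyte lineage-like) of its tumour level, a ratio that the tumour threshold also keeps low.

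**Figure D5:**
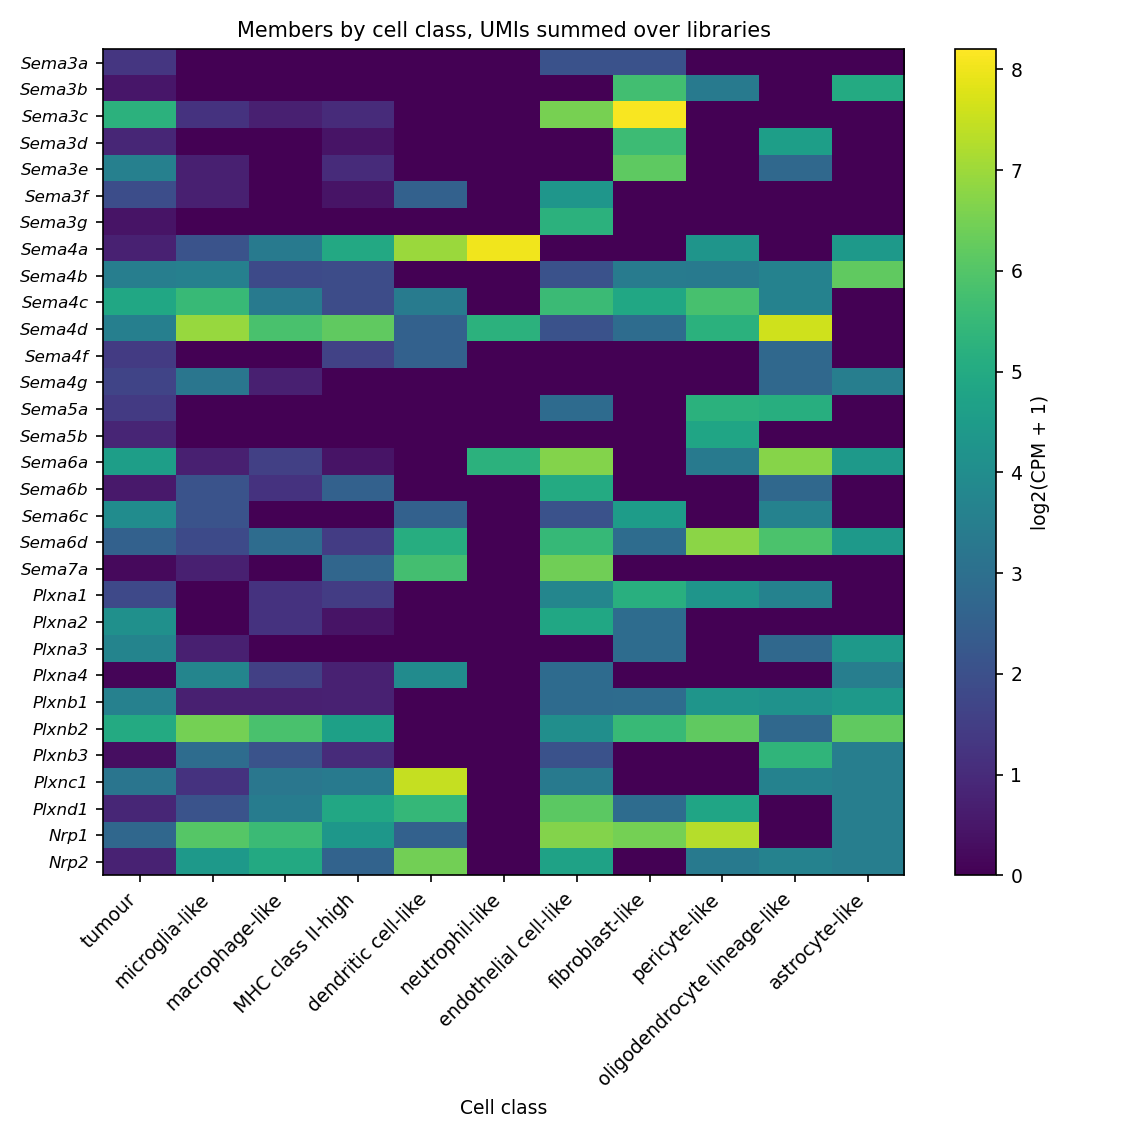
Members as log2(CPM + 1) in tumour cells and in host classes, with UMIs summed over libraries. Sema3c is brightest in fibroblast-like cells, Sema4d in oligodendrocyte lineage-like and microglia-like cells, Plxnc1 in dendritic cell-like cells, Sema4a in neutrophil-like and dendritic cell-like cells, and Nrp1 in pericyte-like, endothelial-like and fibroblast-like cells. The astrocyte-like class of 32 cells was led by Ttr, Clu and Enpp2 as well, and its values and those of the 19 neutrophil-like cells rest on few UMIs, while 11 hepatocyte-like cells are not shown.

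Genes around the family were read from 6 lists of 73 genes, of which 66 were tested. In brain against liver 9 were higher and 7 lower, in brain against subcutaneous 8 were higher and 7 lower, and in liver against subcutaneous 1, Rnd3, was lower, with medians of 0.00, 0.02 and -0.04 on the log2 scale. The shares called were 24.2%, 22.7% and 1.52%, beside 21.8%, 15.1% and 2.83% of all genes. Among 13 tested co-receptors and alternative receptors, 3 were higher and 2 lower against liver (38.5% called), and 2 were higher and 1 lower against subcutaneous tumours (23.1%). Trem2, a myeloid receptor of Sema6d, had the largest value, 24.9 and 2.92 CPM in brain and at most 0.125 CPM elsewhere, with a log2 fold change of 7.45 (SE 0.98 with an edgeR adjusted p = 0.00270). Cd72, a receptor of Sema4d on immune cells, had 3.69 (SE 1.00 with an edgeR adjusted p = 0.0300). Both moved with the macrophage markers given above, brain 1 being highest, and the part of host RNA in them was not tested.

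Chl1, an adhesion molecule that works with Nrp1 in growth cone responses, was lower in brain, at 6.18 and 8.60 CPM against 9.95 to 14.9 in liver and 12.01 to 16.0 in subcutaneous libraries. Its log2 fold changes were -0.89 (SE 0.22 with an edgeR adjusted p = 0.0203) and -0.93 (SE 0.22 and adjusted p = 0.0248). Met, a receptor tyrosine kinase that associates with B-type plexins, had -1.31 (SE 0.37 with an edgeR adjusted p = 0.0341) against liver. Among 5 VEGF genes that were tested, Vegfc was higher in brain than in liver, by 2.10 (SE 0.57 with an edgeR adjusted p = 0.0296). Vegfa, which competes for Nrp1, was lower in brain than in subcutaneous tumours, at 9.87 and 4.86 CPM against 22.2 to 35.7 CPM, a log2 fold change of -1.93 (SE 0.40 with an edgeR adjusted p = 0.0175).

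Among 10 CRMP and MICAL genes, the cytoplasmic effectors of class 3 signalling, 3 were higher and 1 lower against liver (40% called, beside 21.8% of all genes), and 3 were higher and 0 lower against subcutaneous tumours (30%, beside 15.1%). Mical1, an oxidase that takes actin filaments apart, had log2 fold changes of 3.59 (SE 0.49 with an edgeR adjusted p = 0.00228) against liver and 2.99 (SE 0.48 and adjusted p = 0.00650) against subcutaneous. Dpysl4 stood at 6.82 and 5.35 CPM in brain, 0.565 to 1.10 in liver and 1.46 to 3.41 in subcutaneous libraries, with 2.81 (SE 0.38 with an edgeR adjusted p = 0.00208) and 1.35 (SE 0.36 and adjusted p = 0.0355). Dpysl3 was lower against liver, by -0.87 (SE 0.26 with an edgeR adjusted p = 0.0405).

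Of 17 tested small GTPases and regulators, 1 was higher and 1 lower against liver, and 1 was higher and 3 lower against subcutaneous. These are 11.8% and 23.5% of the list, beside 21.8% and 15.1% of all genes. Rnd1, a GTPase that binds plexins, had 1.90 (SE 0.49 with an edgeR adjusted p = 0.0242) and Mras -0.88 (SE 0.13 and adjusted p = 0.00280) against liver. Rnd3 was lower in brain (-1.13, SE 0.21, edgeR adjusted p = 0.0109) and in liver (-0.97, SE 0.18, adjusted p = 0.0291) than in subcutaneous tumours. Against subcutaneous tumours Farp1, an exchange factor that binds A-type plexins, had 0.78 (SE 0.22 with an edgeR adjusted p = 0.0461), and Rras2 -0.51 (SE 0.14 and adjusted p = 0.0426). Of 14 kinases and cytoskeletal effectors, 3 were lower against liver (21.4%) and 2 against subcutaneous (14.3%). Limk1, which phosphorylates cofilin, had -0.72 (SE 0.13 with an edgeR adjusted p = 0.00626) against liver. Fyn, a kinase of the Sema3a response, had -0.54 (SE 0.11 and adjusted p = 0.0104) and -0.64 (SE 0.11 and adjusted p = 0.00888) in the edgeR fit, and Rock1 -0.33 (SE 0.08 and adjusted p = 0.0323) against subcutaneous. Of 7 tested adaptors, 14.3% and 28.6% were called against liver and subcutaneous tumours. Gipc1, which binds the tail of neuropilin, was higher against both, by 0.69 and 0.76 (SE 0.09 each, edgeR adjusted p = 0.00187 and 0.00198). Sh3bp1 was higher against subcutaneous, by 1.67 (SE 0.47 with an edgeR adjusted p = 0.0426).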

How the data were processed

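Per the labels' protocols, N2N1G allografts were dissociated, living cells were sorted and 10x 3' libraries were made. The authors deposited whole-number UMI counts per gene and cell, in 1 matrix per library. Per the file headers the format is that of Cell Ranger 3.0.0, and the submitters' processing notes name Cell Ranger, STAR and the build mm10. Intronic reads and the annotation are not given in the sources used here. Gene positions are from GENCODE M21.

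Kept cells had at least 500 genes and no more than 10% mitochondrial UMIs. No doublet caller was used. Cells were clustered in scanpy 1.11.5 (2000 variable genes without the members, 30 components, 15 neighbours, Leiden resolution 1), tumour and host cells separately. Host classes needed at least 3 markers detected in 20% of cells. Clusters whose only dendritic cell markers among the 10 leading genes were Cd74, H2-Aa and H2-Ab1 were given no cell type. Their leading genes also held others, such as Plac8.

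UMIs of tumour cells were summed per library and fitted in 1 edgeR 4.0.16 quasi-likelihood model over 8 libraries (TMM, filterByExpr, robust; 5 residual degrees of freedom), with Benjamini-Hochberg adjustment over all 13931 tested genes. Host sums were fitted with the library as a block (3 residual degrees of freedom). The SE is the log2 fold change divided by the root of F. The fits were tested on simulated data. Groups come from the labels, which do not say that libraries are separate mice, so p-values refer to the spread between these libraries. In edgeR the spread of each gene is moderated by that of all tested genes, and small p-values of the host fit rest largely on this shared spread. In these sums, fewer expressing cells and less RNA per cell cannot be told apart. Members and gene lists were chosen with earlier results of these data known. Named genes are members past the threshold in a site or host contrast, members averaging at least 20 CPM, both neuropilins, and the 2 largest called changes per direction in each pathway list, contrast by contrast. A few further values, chosen after they were seen, describe clusters, host classes and neighbours.

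Alternatives were DESeq2 1.42.0, other size factors, filters and tumour thresholds, host-marker-free and non-cycling cells, the 4% of cells with most UMIs left out, fits of only the sites compared, a replicate block and each library left out. Another 2, without host-led or En1-led clusters, were chosen after seeing the data. One gene of the tumour marker list and one promoter motif searched are not reported here.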

Additional observations from a re-analysis of the deposited data

How the results depend on the processing

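The following counts pool site and host contrasts and include uncalled values, which cannot fall short of the threshold. Losses per called member are given with the contrasts above. Of the members' log2 fold changes under the alternatives, 1022 values kept direction and side of the threshold and 136 fell short of it. Another 14 passed it newly and 18 changed sign, 0 of these 18 called in either fit. In non-cycling cells the changed values were -0.094, -0.067 and 0.027 for Sema6a (brain against liver, brain against subcutaneous and liver against subcutaneous), and 0.0068 for Sema4c and 0.24 for Sema6b (liver against subcutaneous). Without En1-led clusters Plxnb2 moved to 0.030 (brain against subcutaneous). With 1 library left out, brain against liver ran from -0.0053 to 0.97 for Nrp2 and -0.0077 to 0.23 for Sema6a, and brain against subcutaneous from -0.22 to 0.75 for Nrp2, -0.18 to 1.13 for Sema7a and -0.041 to 0.19 for Sema6a. Liver against subcutaneous ran from -0.64 to 0.0013 for Nrp2, -0.56 to 0.0088 for Sema3a, -1.38 to 0.25 for Sema5b (0.25 without subcutaneous 1), -0.9999 to 0.22 for Sema6b (0.22 without subcutaneous 1) and -0.15 to 0.052 for Sema6a. The count of members called between brain and liver was 12 in the fit described and 6 without En1-led clusters (8.73% of all genes). With 1 liver or subcutaneous library left out, it was 6 (without liver 2, 11.1% of all genes) to 15 (without subcutaneous 1, 32.9%). For brain against subcutaneous the count was 8, and 5 without cells with host gene UMIs (12.4% of all genes) and 0 without En1-led clusters (6.17%). It was 2 with only the 2 sites fitted (5.33%) and 4 with the replicate block (9.89%). With 1 liver or subcutaneous library left out, the count was 1 (without subcutaneous 3, 4.75%) to 11 (without subcutaneous 1, 34.3%). For liver against subcutaneous it was 1, and 2 by DESeq2 (Nrp1 and Sema5a), 0 in non-cycling cells, and 0 to 1 when 1 library was left out. The host count of 15 ran from 12 to 16 over its alternatives, the 12 in DESeq2 without an adjusted p for Sema3f and Sema4f. The En1-led, host-marker-free, non-cycling and 1-library settings, among others, also use fewer cells or libraries. Without cells with host gene UMIs, brain 1 kept 668 of 2418 tumour cells and liver 2 kept 1979 of 4189. Non-cycling cells numbered 781 in brain 1 and 1363 in brain 2. The cause of the changes between settings was not tested. Replicate numbers of the labels were not treated as pairing the libraries. Over 7 same-numbered pairs the correlation of deviations was -0.127 to 0.25, with 2 above 0.1. Deviations from the mean of so few libraries are tied to each other, so this check cannot decide on pairing. With the replicate number as a block, 8, 4 and 1 members were called in the 3 contrasts. Depth limits the low members most. Among the called members, Sema3b, Sema3d and Sema7a rest on under 10 UMIs in at least 1 brain library, and Plxna4 was not tested. The increases of Sema5b and Sema6b rest on few UMIs at the other sites. Sema5b had 13, 12 and 8 UMIs in liver and 45, 16 and 8 in subcutaneous libraries. Sema6b had 12, 9 and 8 in liver and 26, 7 and 14 in subcutaneous libraries.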
